A study of Mus musculus with 4 samples.

Results

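Acrosome and gamete fusion genes were followed through spermatocyte and spermatid nuclei of the mouse testis. The list named 35 genes by symbol, and 32 of them were found among the 55357 genes of the count tables. Pdilp, Fimp and Sof1 were not found by symbol. Fimp and Sof1 are in the tables under other names, 4930451I11Rik and Llcfc1, and were kept in the second list described at the end. The genes were listed by name with no threshold on a measured value.

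Nuclei were isolated from whole testes of male mice 8 weeks old and profiled by single-nucleus RNA sequencing, in 2 WT and 2 Dhx37-/- libraries labelled as biological replicates. In the Dhx37-/- mice a floxed Dhx37 was deleted with Cre under the Amh promoter, which is active in Sertoli cells, and recombination in the germ cell nuclei was not tested here. The floxed line was C57BL/6 based. The paper calls its WT controls littermates and obtained the knockouts from females with 2 floxed alleles. It does not state whether the WT mice of these libraries carried the floxed allele or Cre. With 2 libraries per genotype, each p-value measures only the spread between these libraries.

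The acrosome is a vesicle that forms from the Golgi apparatus and spreads over the nucleus of the round spermatid. It holds the enzymes and binding proteins that a sperm uses to pass the cumulus and the zona pellucida around the egg, and membrane proteins beneath it serve fusion with the egg. Transcription stops when the spermatid nucleus condenses, so these genes are read before then, in spermatocytes and spermatids.

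Start-site sequences are shown for some of the genes whose levels separated the steps described below, with the 250 bases before the RefSeq start site (GRCm38.p6) read 5′ to 3′ in the direction of the gene. Other listed genes separated the steps as well. Izumo1 and Dpy19l2 are also the only listed genes in which either motif described below was found. The first is Izumo1, whose level was highest in round spermatid nuclei, at chr7:45621561-45621810 on the plus strand. The second is Dpy19l2, whose level was highest in pachytene nuclei, at chr9:24696294-24696543 on the minus strand. The third is the whole stretch of 65 bases between the start sites of Dcst1 and Dcst2, neighbours read in opposite directions whose levels moved together, at chr3:89365254-89365318 and printed on the plus strand. GENCODE M21 places no exon in the 3 windows, and a longer transcript of Dcst2 spans the Dcst1-Dcst2 stretch as intron. Capitals mark a cAMP response element in Izumo1 and a MYB motif in Dpy19l2.
Izumo1: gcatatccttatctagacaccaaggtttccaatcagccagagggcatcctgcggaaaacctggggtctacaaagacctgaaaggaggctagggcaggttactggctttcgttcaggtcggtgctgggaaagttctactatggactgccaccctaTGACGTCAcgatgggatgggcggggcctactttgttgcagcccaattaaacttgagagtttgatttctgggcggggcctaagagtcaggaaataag
Dpy19l2: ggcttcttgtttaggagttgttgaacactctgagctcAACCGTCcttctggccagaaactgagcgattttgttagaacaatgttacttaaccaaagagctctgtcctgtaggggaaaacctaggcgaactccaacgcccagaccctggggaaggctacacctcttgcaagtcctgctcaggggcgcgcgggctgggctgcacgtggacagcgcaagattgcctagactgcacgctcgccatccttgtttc
Dcst1-Dcst2: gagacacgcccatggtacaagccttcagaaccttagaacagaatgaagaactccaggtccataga

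Both motifs were searched on both strands in the 250 bases before the start site, and 26 of the 32 genes had such a sequence. The cAMP response element, spelled TGACGTCA, is the site bound by CREM, the activator of many spermatid genes. It was present in 1.55% of all 32851 promoter sequences, and among the genes described here in Izumo1 alone, where it began 96 bases before the start site. The MYB motif, spelled AACNGTC, is bound by MYBL1, a regulator of pachytene genes. It was present in 6.64% of all promoter sequences and among these genes in Dpy19l2 alone, 213 bases before the start site. A match is a string of letters and was not tested as a binding site. Clgn, Adam2, Adam3, Adam5, Izumo4 and Acr had no entry.

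The 4 libraries held 51797891 to 75611263 UMIs, and 8287 to 10033 barcodes per library were kept as nuclei, with a median of 3302 to 4157 UMIs each. Nuclei were sorted into 8 germ cell steps by marker genes that are not on the list. The first 2 were named early (the spermatogonial and early prophase genes Sdk1, Dmrt1, Neto2, Meiob, Mei1, Stra8, Prdm9 and Rad51ap2) and pachytene (Wee2, Pls1, Ovol1, Mybl1). The others were Cadm2/Spef2, Foxp2/Cntn3, Rad51b/Pdgfc, Kcnb2/Dscaml1, Fmo5/Ppm1l and Ung. The gates held between 31 nuclei (Ung gate of WT replicate 1) and 1281 nuclei (Rad51b/Pdgfc gate of Dhx37-/- replicate 2), and 33.2% to 36.0% of kept nuclei were left without a gate. The gates are given in an order of spermatogenesis assumed from their markers, and that order was not tested. Foxp2/Cntn3 and Rad51b/Pdgfc rest on markers of the same class, round spermatids, which does not order them. Words such as rose, fell and next step follow the assumed order. A gate is a range of marker levels and not a pure stage. A set of 8 round spermatid genes not used for gating (Sun5, Catsper3 and others) summed to 395 counts per 1000000 UMIs of the gate (CPM) in the pachytene gate and 1098 CPM in the Foxp2/Cntn3 gate, but were at 577 CPM in the early gate, above pachytene. They were at 1501 CPM in the Rad51b/Pdgfc gate, 1141 CPM in the Kcnb2/Dscaml1 gate and 978 CPM in the Fmo5/Ppm1l gate, so this set did not separate the round spermatid gates from the later ones. Of other genes of the pachytene class, Piwil1, Ccna1 and Pou5f2 were highest in that gate among the germ cell gates. Sycp1, at 125 CPM there, was at 725 CPM in the early gate, and Msh4 was highest in the Ung gate. Of other genes of the early classes, Kit, Zbtb16, Sohlh2, Auts2, Smc1b and Tex15 were highest in the early gate. Sohlh1, Gfra1, Dmc1, Syce3, Hormad1 and Top2a were higher in a later gate. Prm1, Prm2, Tnp1 and Tnp2, which package the condensing nucleus, summed to 14708 CPM in the Kcnb2/Dscaml1 gate, 20700 CPM in the Fmo5/Ppm1l gate and 31908 CPM in the Ung gate. Free RNA, the RNA outside nuclei, was read from barcodes ranked 45000 to 90000 by UMI count. It held a mean of 32195 CPM of these 4 genes, near the Ung gate. Nuclei of the Ung gate had the lowest depth, with medians of 1571 to 2334 UMIs by library. The part of free RNA in the Ung gate was not tested. WT replicate 1 stood apart in free RNA, with 13056 CPM of the same 4 packaging genes against 28806 to 51750 CPM in the other 3 libraries. Any pair of libraries shared 19 to 29 kept barcodes.

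Dhx37, the deleted gene, was measured at 7.06 and 11.8 CPM in all kept nuclei of the WT libraries and at 10.4 and 10.6 CPM in the Dhx37-/- libraries. In the Sertoli gate it was at 6.195 and 18.4 CPM in WT and at 11.4 and 6.74 CPM in Dhx37-/- nuclei. The genotypes overlapped in both fractions, and the 3′ tags counted here need not come from the deleted part of the gene, so Dhx37 did not check the labels.

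Summed over the 32 genes, the level rose from 2697 ± 375 CPM in the early gate (mean ± SD, n = 4 libraries) to 3567 ± 246 CPM in the pachytene gate and 5371 ± 445 CPM in the Foxp2/Cntn3 gate. It was 5045 ± 463 CPM in the Rad51b/Pdgfc gate and 2651 ± 265 CPM in the Kcnb2/Dscaml1 gate. Among the germ cell gates the sum was largest in the Foxp2/Cntn3 gate in each of the 4 libraries. In Leydig-like nuclei, which are not germ cells, the sum was 926 ± 90 CPM, and in fibroblast-like nuclei it was 1291 ± 14 CPM. The other somatic gates held more, with 1434 ± 621 CPM in the Sertoli gate (2364 CPM in WT replicate 2), 2797 ± 439 CPM in the macrophage gate and 3898 ± 809 CPM in the endothelial gate. The endothelial mean lay above those of the pachytene and Ung gates, at 3567 and 3219 CPM. The means of the macrophage and endothelial gates both lay above those of the early, Kcnb2/Dscaml1 and Fmo5/Ppm1l gates. The 4 round spermatid gate markers Rad51b, Pdgfc, Foxp2 and Cntn3 were also high in them, at 920 CPM in the macrophage gate and 1547 CPM in the endothelial gate against 291 CPM in the Sertoli gate, and their part in these sums was not tested. The Leydig-like gate was the somatic gate with the lowest sum. Of the 32 genes, 30 reached at their highest step at least 2 times their Leydig-like level and 28 at least 4 times. The exceptions at the lower limit were Gopc, a Golgi protein used by many cell types, and Izumo4, with 51.1 CPM in Leydig-like nuclei against 93.7 CPM at its highest step. Spaca6 also had a high level there, 113 CPM, above its 17.7 CPM in pachytene nuclei. In the other somatic gates Spaca6 was at 102 CPM (Sertoli) to 231 CPM (endothelial). Against the endothelial gate 13 of the 32 genes reached at least 2 times its level and 2 at least 4 times, and against the macrophage gate 28 and 4. Acrv1 was at 918 CPM at its highest step and 584 CPM in the endothelial gate, and Spaca4 at 87.3 and 81.4 CPM.

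**Figure D1:**
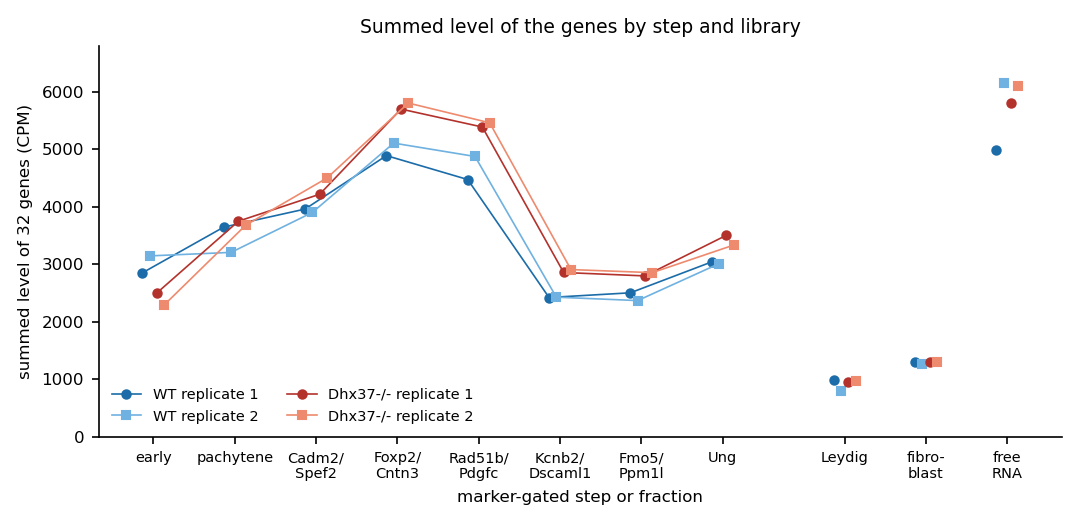
Summed level of the 32 genes in CPM (vertical axis) for each marker-gated step, for Leydig-like and fibroblast-like nuclei and for free RNA (horizontal axis), with 1 point per library and lines joining the germ cell steps of a library. Among the germ cell gates the sum is highest in the Foxp2/Cntn3 gate, at 4886 to 5799 CPM. Free RNA lies above that gate in every library, at 4988 to 6156 CPM, and Leydig-like nuclei are lowest, at 792 to 981 CPM. The Sertoli, macrophage and endothelial gates, which had higher mean sums than the somatic gates drawn, are not shown.

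The step at which a gene was highest divided the list. By the mean of the 4 libraries, 8 genes were highest in the pachytene gate, 11 in the Foxp2/Cntn3 gate, 7 in the Rad51b/Pdgfc gate and 4 in the Ung gate, with 1 each in the Kcnb2/Dscaml1 gate (Adam1a) and the Fmo5/Ppm1l gate (Calr3). For 18 of the 32 genes the highest step was the same in all 4 libraries. Neighbouring steps were compared with edgeR's quasi-likelihood test on UMI counts summed per library and gate, with the library as a block and p-values adjusted by Benjamini-Hochberg over 23059 genes. All gates of the 4 libraries entered 1 fit, so each step p-value rests on a spread pooled over all gates. The gates of a library are not separate animals. A gene was called at an adjusted p under 0.05, and fold changes are log2 values scaled by TMM.

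From the early to the pachytene gate 12 genes rose and 15 fell, where 28.8% of all genes tested were called higher and 32.4% lower. The 4 round spermatid gate markers moved with the falls, from 775 CPM in the early gate to 99.6 CPM in the pachytene gate, as did the 8 round spermatid genes not used for gating, and their part was not tested. From pachytene to Cadm2/Spef2 21 rose and 6 fell (29.4% and 26.8% of all genes), with a median log2 change of 1.23 over the 32 genes against 0.09 over all genes tested. From Cadm2/Spef2 to Foxp2/Cntn3 21 rose and 3 fell (25% and 31.9%), with medians of 0.64 and -0.14. From Foxp2/Cntn3 to Rad51b/Pdgfc 4 rose and 11 fell (18.6% and 27.1%), and from Rad51b/Pdgfc to Kcnb2/Dscaml1 5 rose and 23 fell (25.7% and 32.8%), with medians of -0.87 and -0.17 at the latter. The last contrasts gave few calls, with 0 higher and 7 lower from Kcnb2/Dscaml1 to Fmo5/Ppm1l (4.51% and 8.01%) and 0 higher and 1 lower, Spaca6, from Fmo5/Ppm1l to Ung (1.84% and 7.74%). Calls were frequent among all genes at most steps, and the medians are read beside the counts for that reason. Without TMM the split was 18 higher and 9 lower from pachytene to Cadm2/Spef2, 17 and 8 at the next step, 1 and 3 from Kcnb2/Dscaml1 to Fmo5/Ppm1l, and 3 and 0 from Fmo5/Ppm1l to Ung, where Spaca6 was no longer called. DESeq2 gave 3 higher and 1 lower from Fmo5/Ppm1l to Ung, and the stricter gate gave 0 higher and 15 lower there, with 2 nuclei in the Ung gate of WT replicate 1 and a median of -1.06 over all genes tested.

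**Figure D2:**
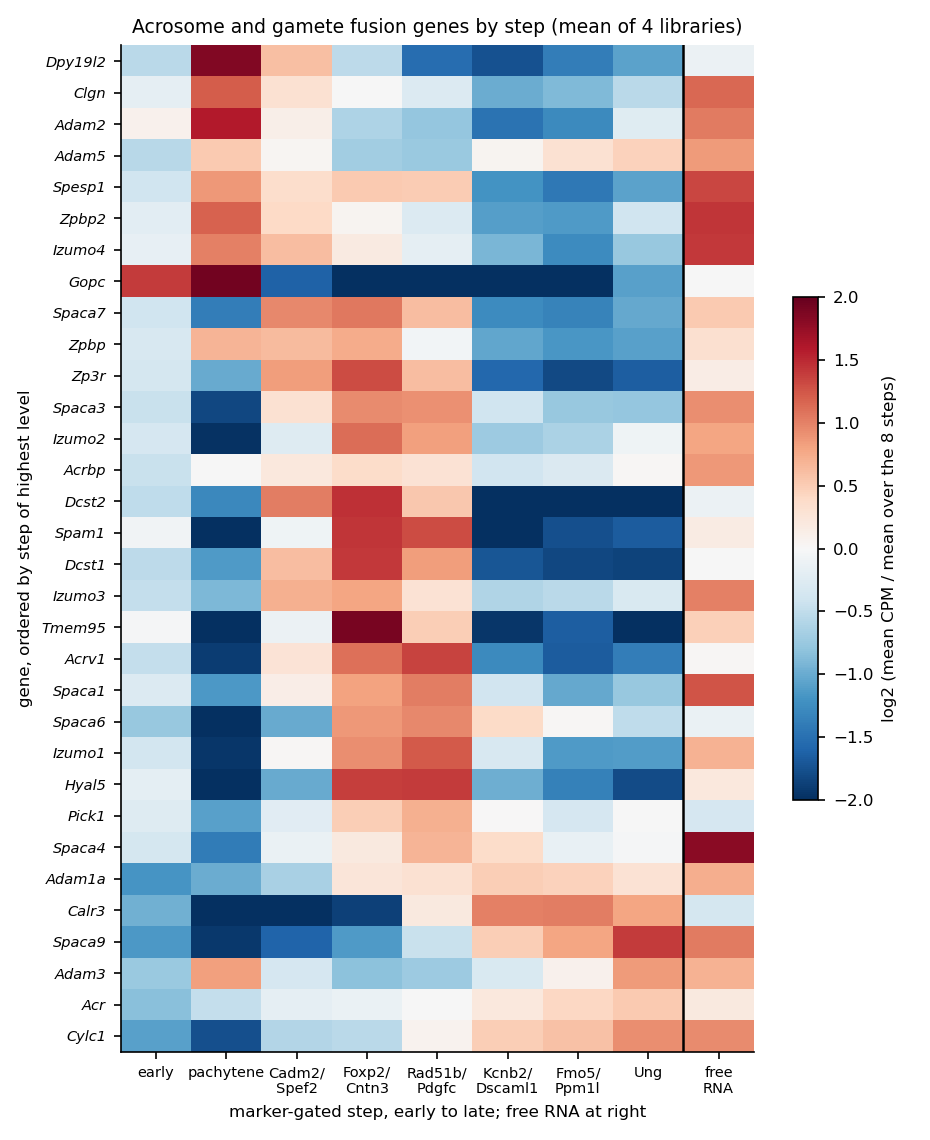
Mean level of each gene (rows, ordered by the step of highest level) in the 8 marker-gated steps and in free RNA (columns), as log2 of its mean CPM over 4 libraries divided by its mean over the 8 steps. The 8 genes at the top, from Dpy19l2 to Gopc, are highest in the pachytene gate, and the 4 at the bottom, Spaca9, Adam3, Acr and Cylc1, in the Ung gate.

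Among the genes of the acrosomal matrix, Acrv1, the matrix protein SP-10, was measured at 96.6 and 119 CPM in the pachytene gate of the WT libraries and at 97.1 and 72.3 CPM in that of the Dhx37-/- libraries. In the Rad51b/Pdgfc gate it reached 613 and 939 CPM in WT and 1077 and 1042 CPM in Dhx37-/- nuclei. Each library thus held several times more Acrv1 in round spermatid than in pachytene nuclei, and WT replicate 1 was the lowest of the 4 in the round gate. The log2 change from pachytene to Cadm2/Spef2 was 2.42 ± 0.17 (SE, adjusted p = 5.7e-16 by edgeR), and from Rad51b/Pdgfc to Kcnb2/Dscaml1 Acrv1 fell by 2.67 ± 0.16 (adjusted p = 4.9e-19).

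Zpbp, a zona pellucida binding protein that also shapes the sperm head, was at 483, 428, 487 and 436 CPM in the pachytene gate (WT replicates 1 and 2, then Dhx37-/- replicates 1 and 2) and at 507, 458, 494 and 450 CPM in the Foxp2/Cntn3 gate. The values of both gates overlapped, although each library was higher in the Foxp2/Cntn3 gate. The step from pachytene to Cadm2/Spef2 was not called (0.17 ± 0.14, adjusted p = 0.30), and the next step was (0.35 ± 0.14, adjusted p = 0.024). Its paralog Zpbp2 was instead highest in the pachytene gate in every library, at 145, 120, 165 and 154 CPM, and lower in the Foxp2/Cntn3 gate, at 74.2, 62.6, 64.9 and 64.3 CPM, with no overlap between the gates. Zpbp2 rose by 1.55 ± 0.16 from the early gate (adjusted p = 3.7e-11) and fell by 0.57 ± 0.14 at the next step (adjusted p = 0.00058).

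Spaca7, a protein released at the acrosome reaction, was at 118, 110, 76.2 and 61.4 CPM in the pachytene gate and at 499, 437, 437 and 470 CPM in the Cadm2/Spef2 gate, in the same library order. Every library rose, by a log2 change of 2.63 ± 0.18 (adjusted p = 9.0e-17), and the next step was not called (adjusted p = 0.059). Zp3r, a zona pellucida binding protein of the matrix, was highest in the Foxp2/Cntn3 gate at 344, 317, 323 and 342 CPM. Acr, the protease acrosin, had mean levels that increased gradually, from 61.6 ± 15.1 CPM in the early gate to 110 ± 10 CPM in the Rad51b/Pdgfc gate and 158 ± 22 CPM in the Ung gate. Acrbp, which binds the acrosin precursor, was highest in the Foxp2/Cntn3 gate at 174 ± 51 CPM, and Spesp1, of the equatorial segment, in the pachytene gate at 148 ± 12 CPM. Of the 8 matrix genes, 6 rose and none fell from Cadm2/Spef2 to Foxp2/Cntn3, and 7 fell from Rad51b/Pdgfc to Kcnb2/Dscaml1.

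Among the genes of the acrosomal membrane and its anchorage, Dpy19l2, which holds the acrosome to the nuclear envelope, was at 646, 403, 501 and 503 CPM in the pachytene gate and at 54.3, 45.01, 50.3 and 50.2 CPM in the Rad51b/Pdgfc gate. It fell in every library, and each of the 3 successive contrasts was called, with log2 changes of -0.998 ± 0.13, -0.89 ± 0.13 and -1.08 ± 0.14 (adjusted p = 1.6e-08, 2.1e-07 and 1.0e-08). Gopc, a Golgi protein needed for acrosome formation, was also highest in the pachytene gate, at 58.5 ± 12.7 CPM, and was at 4.99 ± 1.70 CPM in the Cadm2/Spef2 gate.

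Spaca1, an inner acrosomal membrane protein, was at 71.0, 98.9, 56.7 and 67.4 CPM in the pachytene gate and at 251, 363, 372 and 342 CPM in the Rad51b/Pdgfc gate. Spaca3, a lysozyme-like membrane protein, was at 40.8, 41.1, 39.8 and 41.0 CPM in the pachytene gate and at 260, 247, 274 and 328 CPM in the Foxp2/Cntn3 gate. Both rose in every library with no overlap between the gates. Pick1, a partner of Gopc in vesicle transport, was highest in the Rad51b/Pdgfc gate at 127 ± 10 CPM, and Spaca4, a small surface protein that assists zona binding, at 87.3 ± 20.6 CPM.

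Spaca9 followed another course. It was at 45.3, 50.2, 76.9 and 74.1 CPM in the pachytene gate, at 258, 289, 390 and 383 CPM in the Kcnb2/Dscaml1 gate and at 520, 636, 665 and 653 CPM in the Ung gate. The rise was seen in all 4 libraries, and the contrasts from Cadm2/Spef2 to Kcnb2/Dscaml1 were called at log2 changes of 0.71 ± 0.13, 0.63 ± 0.12 and 0.88 ± 0.12 (adjusted p = 4.4e-06, 3.9e-05 and 2.7e-08). The last step was not called (0.30 ± 0.13, adjusted p = 0.17). Cylc1, of the perinuclear theca beneath the acrosome, was likewise highest among the gates in the Ung gate, at 87.5 ± 25.3 CPM. Spaca9, Adam3, Acr and Cylc1, all highest in the Ung gate, had means of 619, 308, 158 and 87.5 CPM there. In free RNA their means were 483, 276, 126 and 88.0 CPM. The part of free RNA in the Ung values was not tested. The Ung gate of WT replicate 1 held 59584 UMIs in all, the fewest of any gate, and its values carry the most counting error.

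Both hyaluronidases, which loosen the cumulus matrix, had their highest levels in the round spermatid gates. Spam1 was at 178, 162, 162 and 183 CPM in the Foxp2/Cntn3 gate and at 14.3, 8.91, 7.87 and 14.6 CPM in the Kcnb2/Dscaml1 gate. Hyal5 was at 146, 113, 133 and 129 CPM and at 34.0, 22.5, 21.7 and 22.4 CPM in the same gates. Neither gene overlapped between these gates. Spam1 fell by 3.86 ± 0.21 from Rad51b/Pdgfc to Kcnb2/Dscaml1 (adjusted p = 9.4e-21) and Hyal5 by 2.46 ± 0.17 (adjusted p = 6.1e-17). The entry of the pair differed in size, with log2 changes from pachytene to Cadm2/Spef2 of 2.77 ± 0.27 for Spam1 and 1.79 ± 0.27 for Hyal5, and this difference was not tested.

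Of the 8 fusion genes found, 7 rose from pachytene to Cadm2/Spef2, 6 rose at the next step and 8 of 8 fell from Rad51b/Pdgfc to Kcnb2/Dscaml1. Izumo1, the sperm protein that binds the egg receptor, was at 21.1, 12.2, 14.8 and 15.7 CPM in the pachytene gate and at 124, 134, 159 and 157 CPM in the Rad51b/Pdgfc gate. All libraries rose without overlap. The start-site sequence of Izumo1 above holds the cAMP response element, which was not tested as a binding site. GENCODE M21 has Izumo1 overlap Rasip1 on the same strand, and reads in the shared part cannot be assigned to one of them with certainty. Izumo2 was at 25.7, 36.5, 27.0 and 28.9 CPM in the pachytene gate and at 252, 230, 261 and 264 CPM in the Foxp2/Cntn3 gate.

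Spaca6, which is required for fusion, was at 13.6, 16.7, 18.9 and 21.7 CPM in the pachytene gate and at 220, 278, 260 and 263 CPM in the Foxp2/Cntn3 gate. It was at 182 ± 15 CPM in the Kcnb2/Dscaml1 gate and 98.3 ± 21.3 CPM in the Ung gate. GENCODE M21 has the microRNA genes Mir99b, Mirlet7e and Mir125a overlap Spaca6 on the same strand. Tmem95, another fusion protein, was measured mainly in the Foxp2/Cntn3 gate, at 29.4, 47.7, 58.8 and 58.2 CPM, against 13.2, 16.9, 20.8 and 22.2 CPM in the Rad51b/Pdgfc gate. Izumo3 reached 71.3 ± 12.6 CPM in the Foxp2/Cntn3 gate, and Izumo4 was the fusion gene highest in the pachytene gate.

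Dcst1 and Dcst2, membrane proteins required for fusion, have the 65 bases printed above between their start sites. Dcst1 was at 104, 128, 121 and 112 CPM in the Foxp2/Cntn3 gate and Dcst2 at 165, 173, 178 and 175 CPM. In the Kcnb2/Dscaml1 gate Dcst1 was at 18.9, 11.3, 11.1 and 11.9 CPM and Dcst2 at 20.4, 13.1, 9.25 and 10.7 CPM. Both genes were highest in the Foxp2/Cntn3 gate in all 4 libraries and fell together. From Rad51b/Pdgfc to Kcnb2/Dscaml1 Dcst1 fell by 2.63 ± 0.19 (adjusted p = 2.2e-16) and Dcst2 by 2.84 ± 0.19 (adjusted p = 9.1e-18). From Foxp2/Cntn3 to Rad51b/Pdgfc they fell by 0.67 ± 0.17 and 1.03 ± 0.16 (adjusted p = 0.00078 and 6.5e-07). They overlap on opposite strands in GENCODE M21, and how strand entered the counting is not given in the sources used here.

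The ADAM proteins of the sperm surface and their chaperones were the group most often highest in the pachytene gate. Clgn, the chaperone calmegin that folds ADAM proteins in the endoplasmic reticulum, was at 414, 350, 464 and 465 CPM there and at 118, 80.2, 91.4 and 80.9 CPM in the Kcnb2/Dscaml1 gate. Adam2, which Clgn folds, was at 334, 227, 369 and 397 CPM in the pachytene gate and at 44.0, 29.1, 42.6 and 43.6 CPM in the Kcnb2/Dscaml1 gate. Both fell in every library between these gates, with no overlap. Adam3 was at 90.3, 91.5, 116 and 109 CPM in the early gate, at 281, 257, 326 and 334 CPM in the pachytene gate, at 104, 90.6, 101 and 92.3 CPM in the Foxp2/Cntn3 gate and at 336, 281, 321 and 294 CPM in the Ung gate. Each value of Adam3 in the Foxp2/Cntn3 gate lay below each of its values in the pachytene and Ung gates and overlapped those of the early gate. Adam5 was at 213, 193, 200.3 and 226 CPM in the pachytene gate, at 105, 78.3, 95.6 and 80.2 CPM in the Foxp2/Cntn3 gate and at 252, 184, 190.0 and 169 CPM in the Ung gate. Its Foxp2/Cntn3 values too lay below those of both other gates. The rise of Adam3 from Fmo5/Ppm1l to Ung was not called (0.44 ± 0.16, adjusted p = 0.064).

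Calr3, the chaperone calsperin that serves Adam3, rose late. It was at 30.9, 26.5, 40.2 and 39.9 CPM in the Foxp2/Cntn3 gate, at 122, 132, 163 and 160 CPM in the Rad51b/Pdgfc gate and at 198, 241, 293 and 273 CPM in the Kcnb2/Dscaml1 gate. Clgn and Calr3 thus had opposite courses, Clgn falling by 0.78 ± 0.15 from Rad51b/Pdgfc to Kcnb2/Dscaml1 (adjusted p = 2.3e-05) while Calr3 rose by 0.73 ± 0.14 (adjusted p = 1.9e-05). Adam1a had few UMIs, at most 8.06 CPM in a gate, and overlaps Mapkapk5 on the same strand in GENCODE M21.

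**Figure D3:**
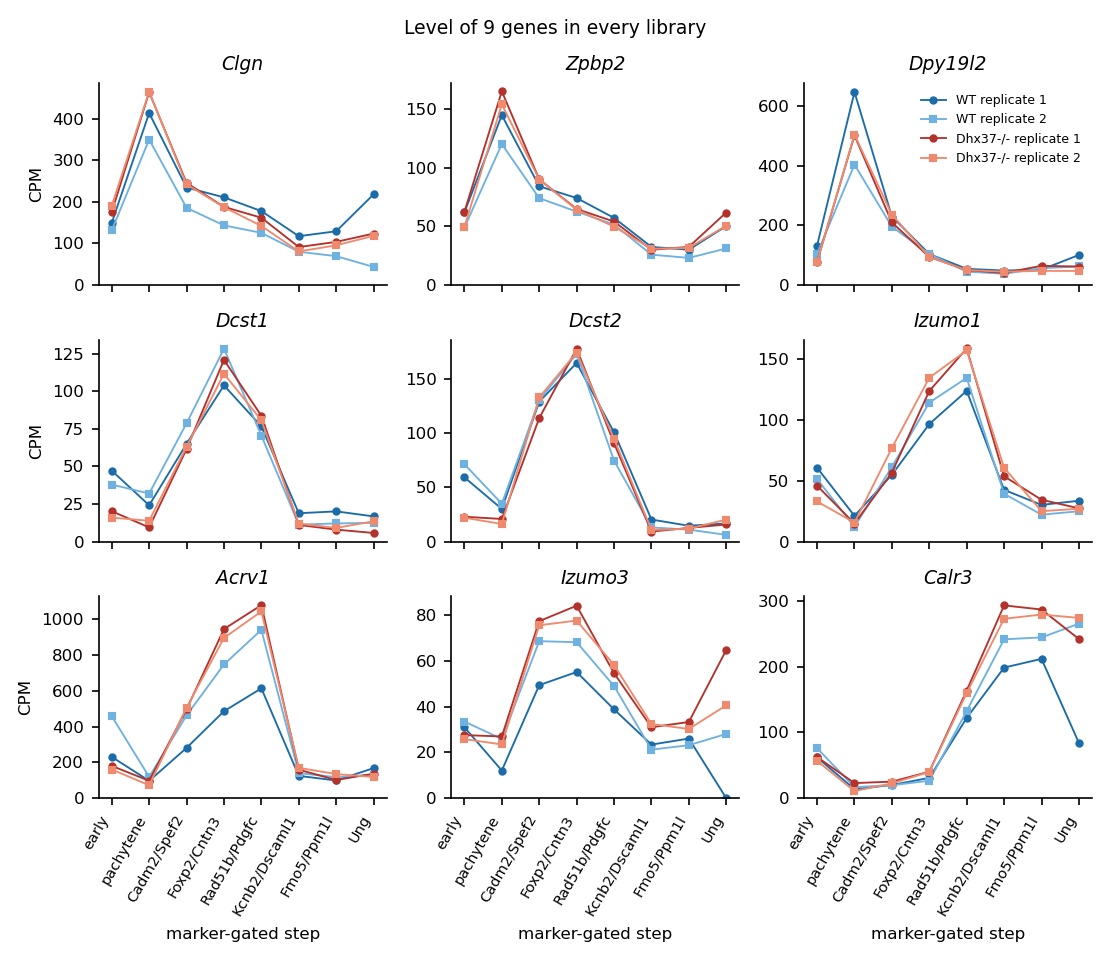
Level in CPM (vertical axes, each from 0) of 9 genes across the 8 marker-gated steps (horizontal axes), with 1 line per library. Clgn, Zpbp2 and Dpy19l2 are highest in the pachytene gate, Dcst1, Dcst2 and, by its mean, Izumo3 in the Foxp2/Cntn3 gate, Izumo1 and Acrv1 in the Rad51b/Pdgfc gate, and Calr3, by its mean, from the Kcnb2/Dscaml1 gate on. Calr3 is at 83.9 CPM in the Ung gate of WT replicate 1.

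These transcripts made up a larger share of the UMIs of free RNA than of those of the nuclei. The 32 genes summed to 4988, 6156, 5802 and 6096 CPM in free RNA and to 3527, 3778, 3625 and 3925 CPM in all kept nuclei, in the order WT replicates 1 and 2, Dhx37-/- replicates 1 and 2. Every library had the higher sum in its free RNA. In the same edgeR test, with the library as a block over 28781 genes, 23 genes were higher and none was lower in free RNA, where 30.7% of all genes tested were called higher and 36.8% lower. At an unadjusted p under 0.05 the count was also 23, and DESeq2 also called 23 higher and none lower. The median log2 difference was 0.80 over the 32 genes and -0.19 over all genes tested. Without TMM 17 genes were called higher and 2 lower, and all genes moved by a further -0.30.

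Zpbp2 was at 139, 196, 193 and 167 CPM in free RNA and at 60.6, 53.2, 63.8 and 56.1 CPM in nuclei. Spaca4 was at 91.2, 213, 204 and 254 CPM in free RNA and at 46.1, 60.1, 63.2 and 80.4 CPM in nuclei. Adam2 was at 225, 215, 220 and 251 CPM in free RNA and at 81.3, 61.0, 96.0 and 116 CPM in nuclei. Each of these 3 genes was higher in free RNA in all 4 libraries, with no overlap between the fractions, and they had the highest log2 differences of the list, 1.86 ± 0.17, 1.84 ± 0.19 and 1.69 ± 0.17 (adjusted p = 6.4e-07, 1.4e-06 and 9.0e-07).

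At the other end Pick1 was at 79.1, 63.7, 43.5 and 59.8 CPM in free RNA and at 87.3, 81.2, 74.9 and 89.7 CPM in nuclei, Dcst2 at 88.3, 65.5, 29.8 and 47.0 CPM and at 79.6, 81.2, 58.0 and 69.5 CPM, and Spaca6 at 125, 164, 95.4 and 129 CPM and at 155, 192, 147 and 175 CPM. In CPM Pick1 and Spaca6 were lower in the free RNA of every library, and Dcst2 in all but WT replicate 1. The fractions overlapped across libraries for each of these genes. On the TMM scale the log2 differences were -0.17 ± 0.14, -0.13 ± 0.16 and -0.11 ± 0.15 (edgeR adjusted p = 0.30, 0.49 and 0.54). Genes highest in the pachytene gate were all called higher in free RNA, 8 of 8, with log2 differences of 0.59 to 1.86. So were the genes highest in the Ung gate, 4 of 4, with 0.59 to 1.525, and Adam1a. Of the 18 genes highest in the Foxp2/Cntn3 or Rad51b/Pdgfc gate, 10 were called higher and 8 were not, with a range of -0.17 to 1.84. Spam1, Hyal5, Zp3r, Acrv1, Dcst1 and Calr3 were the other genes not called. Free RNA read from barcodes ranked 90000 to 180000 instead gave 15 genes higher and 3 lower, and Cylc1, Adam1a, Gopc, Dpy19l2 and Zpbp, called higher in the first range, had negative values there. That second range held 322362 to 410062 UMIs per library, against 6918474 to 13046310 in the first. The first range had medians of 197 to 320 UMIs per barcode and ended at 6 to 9, where the second began. Whether both ranges hold the same kind of RNA was not tested.

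**Figure D4:**
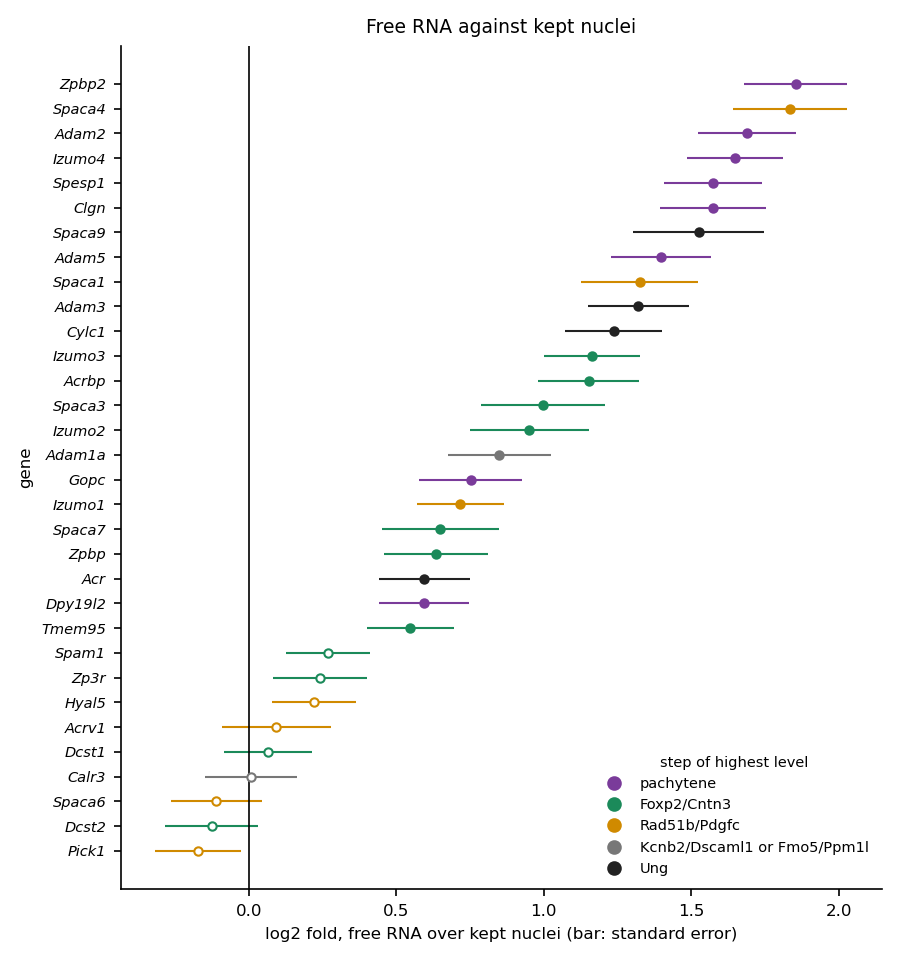
Log2 fold of each gene in free RNA over all kept nuclei (horizontal axis), with its standard error as a bar, coloured by the step at which the gene was highest. Filled points passed an adjusted p under 0.05. Genes run from Zpbp2, at 1.86, to Pick1, at -0.17, and the 9 open points at the bottom are genes highest in the Foxp2/Cntn3, Rad51b/Pdgfc or Fmo5/Ppm1l gate.

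Between genotypes, the genes described here were compared within each gate, over all kept nuclei and in free RNA, to ask whether loss of Dhx37 in Sertoli cells went with another level of these germ cell transcripts. Called differences were found only in the early gate. There 9 of 30 genes tested passed, 1 higher and 8 lower in Dhx37-/-, where 11.5% of all genes tested were called, 2.37% higher and 9.1% lower. DESeq2 called 8, and 15 had an unadjusted p under 0.05 (29.8% of all genes tested). In the pachytene, Cadm2/Spef2, Kcnb2/Dscaml1 and Fmo5/Ppm1l gates 0 of the listed genes were called by edgeR (background 0%), as were 0 in the Foxp2/Cntn3 (0.00571%), Rad51b/Pdgfc (0.00595%) and Ung (0.0156%) gates, over all kept nuclei (0%) and in free RNA (0%). DESeq2 called none in any of these 9 fractions. At an unadjusted p under 0.05 edgeR had 5 listed genes in the pachytene gate (16.2% of all genes tested), 1 over all nuclei (14.8%) and 2 in free RNA (18.4%). It had 3 each in the Cadm2/Spef2 (7.71%), Foxp2/Cntn3 (7.96%), Kcnb2/Dscaml1 (8.48%) and Fmo5/Ppm1l (9.43%) gates, 1 in the Rad51b/Pdgfc gate (6.74%) and 2 in the Ung gate (9.08%). In simulated counts for the Rad51b/Pdgfc gate the same test recovered 87% of genes changed 4-fold and 19% of genes changed 2-fold, so changes near 2-fold could be missed.

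The 8 genes lower in the early gate of Dhx37-/- testes were Dcst2, Hyal5, Spam1, Zp3r, Dcst1, Spaca6, Spaca7 and Acrv1, and all 8 were genes highest in the Foxp2/Cntn3 or Rad51b/Pdgfc gate. Dcst2 was at 59.3 and 71.4 CPM in WT and at 23.0 and 22.1 CPM in Dhx37-/- nuclei, and Dcst1 at 47.2 and 37.9 against 20.2 and 15.97 CPM. Hyal5 was at 75.5 and 53.6 CPM in WT and at 23.0 and 22.4 CPM in Dhx37-/- nuclei, and Spam1 at 58.0 and 116 against 39.5 and 28.5 CPM. The genotypes did not overlap for these 4 genes, whose log2 differences were -1.67 ± 0.30, -1.42 ± 0.35, -1.67 ± 0.32 and -1.48 ± 0.37 (edgeR adjusted p = 0.015, 0.035, 0.017 and 0.035).

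Zp3r was at 133 and 167 CPM in WT and at 72.6 and 51.0 CPM in Dhx37-/- nuclei, and Spaca7 at 236 and 246 against 135 and 100.2 CPM. Spaca6 was at 94.4 and 134 against 48.7 and 54.7 CPM, and Acrv1 at 231 and 458 against 180 and 160 CPM. These 4 did not overlap either, with log2 differences of -1.44 ± 0.29, -1.19 ± 0.25, -1.25 ± 0.28 and -1.14 ± 0.32 (edgeR adjusted p = 0.019, 0.022, 0.027 and 0.048). Adam2, highest in the pachytene gate, was the gene that was higher, at 72.8 and 35.7 CPM in WT and 159 and 204 CPM in Dhx37-/- nuclei (1.55 ± 0.34, adjusted p = 0.024).

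The makeup of the early gate moved with these genes. The 4 round spermatid markers (Rad51b, Pdgfc, Foxp2, Cntn3) summed to 940 and 875 CPM in the early gate of the WT libraries and to 569 and 718 CPM in that of the Dhx37-/- libraries. The 8 round spermatid genes not used for gating summed to 618 and 797 CPM in WT and to 439 and 455 CPM in Dhx37-/-. The 4 pachytene markers went the other way, with 52.6 and 51.3 CPM in WT and 95.6 and 92.8 CPM in Dhx37-/-, while the 8 early markers were at 1712 and 1324 CPM against 1818 and 2010 CPM. All 4 lists separated the genotypes without overlap. The gate held 201 and 114 nuclei in WT and 236 and 613 in Dhx37-/- libraries. The part of these values in the 9 calls was not tested. With a stricter gate 8 of the listed genes were called, 1 higher and 7 lower, where 9.56% of all genes tested were called. Without Dhx37-/- replicate 2 none was called by edgeR (0.316% of all genes), with 9 at an unadjusted p under 0.05.

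**Figure D5:**
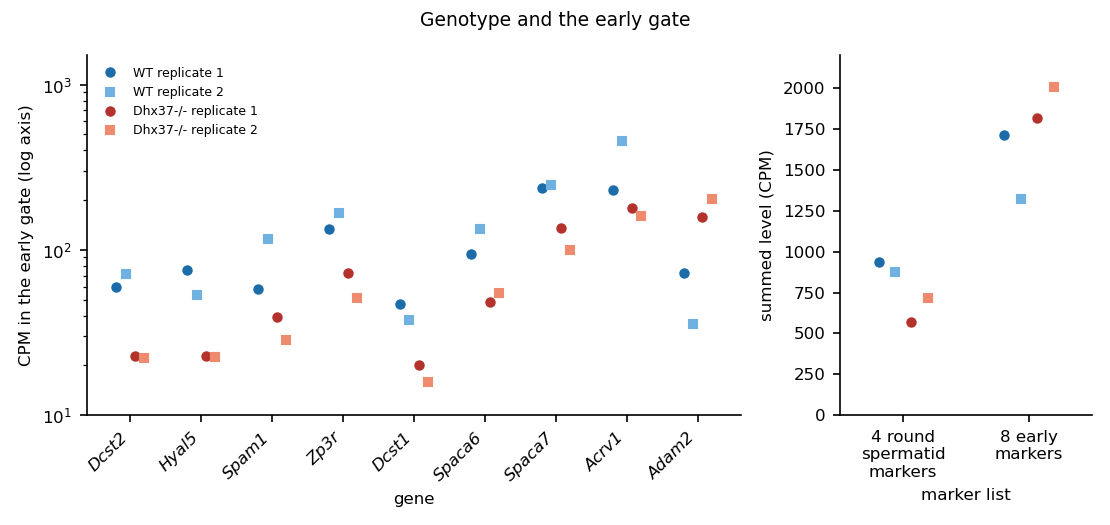
Left, level in CPM on a log axis of the 9 genes called between genotypes in the early gate, with 1 point per library. Right, summed level in CPM of 4 round spermatid markers and of the 8 early markers in the same gate, from 0. The WT libraries are above the Dhx37-/- libraries for the first 8 genes and for the round spermatid markers, and below them for Adam2 and the early markers.

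In the later gates the summed level of the 32 genes was higher in both Dhx37-/- libraries than in both WT libraries. It was 4886 and 5103 CPM in WT against 5695 and 5799 CPM in Dhx37-/- nuclei of the Foxp2/Cntn3 gate, and 2419 and 2425 against 2854 and 2905 CPM in the Kcnb2/Dscaml1 gate. The same separation was seen in the pachytene, Cadm2/Spef2, Rad51b/Pdgfc, Fmo5/Ppm1l and Ung gates, and in the early gate the order was the opposite. With the stricter gate the pachytene values overlapped, at 3636 and 3250 CPM in WT against 3612 and 3524 CPM in Dhx37-/-, and the other 6 gates stayed apart. Over all kept nuclei, as given above, the sums overlapped. Gene by gene on the TMM scale, 9 of 32 genes in the Cadm2/Spef2 gate had both Dhx37-/- libraries above both WT libraries (21.8% of all genes tested), 10 of 32 in the Foxp2/Cntn3 gate (20.6%), 12 of 32 in the Rad51b/Pdgfc gate (20.5%), 12 of 31 in the Kcnb2/Dscaml1 gate (21.6%), 12 of 30 in the Fmo5/Ppm1l gate (22.3%) and 7 of 24 in the Ung gate (21.1%). The members' shares were 28.1%, 31.2%, 37.5%, 38.7%, 40.0% and 29.2%. In the opposite direction there were 4, 1, 2, 2, 2 and 2 genes, or 12.5%, 3.12%, 6.25%, 6.45%, 6.67% and 8.33%, against 17.9%, 20%, 18.7%, 18.4%, 19.2% and 18.2% of all genes tested. In the pachytene gate 9 of 29 genes were above (31% against 24.8% of all genes) and 7 below (24.1% against 23.4%). In the early gate 5 of 30 were above (16.7% against 30%) and 18 below (60% against 30.1%). Over all kept nuclei 6 of 32 were above (18.8% against 28.7%) and 9 below (28.1% against 22.1%), and in free RNA 11 (34.4% against 27.1%) and 7 (21.9% against 26.5%). The gates come from the same 4 libraries and do not count as separate observations.

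Spaca9, Izumo3, Acrbp and Izumo4 had both Dhx37-/- libraries above both WT libraries in all 6 of these gates, and were picked out after their values were seen. They were 4 of the 24 listed genes tested in each of the 6 gates, where 6.46% of 6133 genes lay above in all 6. In the early gate Izumo3 separated the opposite way, at 31.0 and 33.5 CPM in WT against 27.6 and 25.8 CPM in Dhx37-/-. Acrbp overlapped there, and Spaca9 and Izumo4 were above. In the pachytene gate and over all kept nuclei Izumo3 overlapped and the others were above. In the Rad51b/Pdgfc gate Spaca9 was at 129 and 156 CPM in WT and at 205 and 198 CPM in Dhx37-/- nuclei, Acrbp at 146 and 133 against 189 and 196 CPM, Izumo3 at 38.8 and 49.0 against 54.6 and 58.2 CPM, and Izumo4 at 24.8 and 34.4 against 41.6 and 64.6 CPM. None was called (edgeR adjusted p = 0.73, 0.73, 0.80 and 0.73). All 4 were also higher in the free RNA of both Dhx37-/- libraries, Spaca9 at 220 and 458 CPM in WT against 683 and 572 CPM. Of the 4, 3 separated the same way in Leydig-like nuclei, Spaca9 at 45.5 and 36.6 against 78.8 and 63.7 CPM, Izumo4 at 37.1 and 48.8 against 56.8 and 61.7 CPM, and Izumo3 at 6.49 and 2.44 against 9.27 and 10.3 CPM. Acrbp overlapped there, at 52.0 and 34.1 against 45.8 and 40.7 CPM. In fibroblast-like nuclei Spaca9, Izumo4 and Acrbp separated the same way and Izumo3 overlapped. In the Sertoli gate Spaca9, Izumo4 and Acrbp overlapped, and Izumo3 separated the opposite way, at 21.7 and 29.5 CPM in WT against 9.10 and 14.3 CPM in Dhx37-/-. In the macrophage gate Spaca9, Izumo3 and Izumo4 were higher in both Dhx37-/- libraries and Acrbp overlapped, and in the endothelial gate Spaca9 and Acrbp were higher and the other two overlapped.

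Free RNA and depth also moved with this separation. The packaging genes Prm1, Prm2, Tnp1 and Tnp2 summed to 2349 and 2423 CPM in Leydig-like nuclei of the WT libraries and to 5329 and 3509 CPM in those of the Dhx37-/- libraries, and to 2864 and 3336 against 6917 and 5349 CPM in the Foxp2/Cntn3 gate. The median UMI count per nucleus of the Foxp2/Cntn3 gate was 3882.5 and 4002 in WT and 4615.5 and 4452 in Dhx37-/- libraries. The listed genes themselves summed to 981 and 792 CPM in Leydig-like nuclei of WT and to 954 and 976 CPM in those of Dhx37-/- libraries, with overlap, while Spaca9, Izumo4 and Izumo3 separated there. Marker lists moved as well. The 7 Leydig markers were higher in both Dhx37-/- libraries in each of the 6 later gates, with 65.7 and 41.5 CPM in WT against 125 and 125 CPM in the Foxp2/Cntn3 gate. The 8 round spermatid genes not used for gating were higher in the Foxp2/Cntn3 (1015 and 1000.2 against 1176 and 1202 CPM), Rad51b/Pdgfc, Kcnb2/Dscaml1 and Fmo5/Ppm1l gates and overlapped in the Cadm2/Spef2 and Ung gates. The 4 round spermatid gate markers were lower in the Cadm2/Spef2, Foxp2/Cntn3 (2472 and 2528 against 1981 and 2000 CPM), Rad51b/Pdgfc and Ung gates and overlapped in the others. The 8 Sertoli markers overlapped in all 6 gates, and the 7 macrophage markers were lower in the Cadm2/Spef2, Foxp2/Cntn3, Rad51b/Pdgfc and Fmo5/Ppm1l gates. The part of free RNA, of depth and of these lists in the separation was not tested. Leaving out WT replicate 1 gave 33 calls of listed genes over the 8 gates, 21 higher and 12 lower, and leaving out WT replicate 2 gave 39, 25 higher and 14 lower. These were 13.6% and 16% of the tests of listed genes, where 9.69% and 12% of all tests in the 8 gates were called, against 3.75% and 1.3% with all 4 libraries. By direction, 3.32% of all tests were higher and 6.36% lower without WT replicate 1, and 6.22% and 5.79% without WT replicate 2. In free RNA 8 of 32 genes were called without WT replicate 2, 7 higher and 1 lower, where 31.4% of all genes were called.

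Other acrosome and fertilization genes were taken as a second list of 40, of which 39 were found. It holds Llcfc1 and 4930451I11Rik, the other names of Sof1 and Fimp, whose levels were highest among the gates in the Rad51b/Pdgfc gate, at means of 98.8 and 80.9 CPM. Between steps the median log2 change of the second list was 0.62 from pachytene to Cadm2/Spef2 and 0.50 from Cadm2/Spef2 to Foxp2/Cntn3. Of 38 tested, 19 were higher and 4 lower, then 21 and 5. From the early to the pachytene gate 9 were higher and 22 lower, with a median of -0.63. From Foxp2/Cntn3 to Rad51b/Pdgfc 13 were higher and 6 lower, with a median of 0.13 against -0.13 for the 32 genes. From Rad51b/Pdgfc to Kcnb2/Dscaml1 8 were higher and 15 lower, with a median of -0.11 against -0.87. The last contrasts gave 0 higher and 10 lower, then 0 and 4. The shares of all genes are given above. In free RNA 31 of the second list were higher and 3 lower, with a median of 1.43. Between genotypes 5 of 35 tested were called in the early gate, against the 11.5% given above. The makeup of this gate also separated the genotypes, as described above, and its part in these calls was not tested. How the calls depend on the processing is given at the end. Cylc2, Pcsk4 and Lyzl6, of the perinuclear theca and the acrosomal region, were lower in Dhx37-/- (-1.54 ± 0.28, -1.30 ± 0.34 and -1.20 ± 0.28, edgeR adjusted p = 0.015, 0.039 and 0.027). Ly6k and Tex101, partners on the germ cell surface in Adam3 maturation, were higher (1.39 ± 0.26 and 1.28 ± 0.27, adjusted p = 0.018 and 0.023). On the TMM scale, genes of this list also had both Dhx37-/- libraries above both WT libraries in the 6 later gates. From Cadm2/Spef2 to Ung these were 14 of 38, 17 of 38, 11 of 38, 21 of 38, 16 of 37 and 12 of 30. Of all genes tested 21.8%, 20.6%, 20.5%, 21.6%, 22.3% and 21.1% lay above. Below lay 3, 3, 4, 2, 2 and 3, against 17.9%, 20%, 18.7%, 18.4%, 19.2% and 18.2% of all genes. In the early gate 8 of 35 lay above and 12 below, where 30% and 30.1% of all genes did.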

How the data were processed

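Nuclei of whole testes were profiled with the 10x 3′ kit in 4 libraries. The deposited files hold raw UMI counts per gene and barcode, which the authors made with Cell Ranger (7.2.0 in the file headers). The paper names mm39 and the submitters' processing notes GRCm38, and whether intronic reads were counted is not given in the sources used here. Promoter sequences are from RefSeq on GRCm38.p6, which need not be the build of the counts.

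Nuclei were called in 2 steps after Cell Ranger (the 99th percentile of 8000 expected nuclei divided by 10, then a test against free RNA with 10000 simulations at an adjusted p under 0.01) and kept within limits of 500 and 5000 genes, a minimum of 500 UMIs and a mitochondrial share up to 25%. Doublets, called by Scrublet, were left out only in an alternative. A nucleus took the gate with the highest marker level (UMIs per 10000, divided by the 98th percentile) at a minimum of 3 marker UMIs and 0.2 of the scale (5 and 0.4 in the stricter gate). These limits were set after the values were seen. Leydig-like nuclei, which had the lowest sum of the listed genes, served as background.

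Counts were summed per library and gate and tested two-sided with edgeR 4.0.16 (TMM, default filter on low counts, quasi-likelihood test, Benjamini-Hochberg adjustment) and with DESeq2 1.42.0 as an alternative. The test was run on simulated data first. The genes and lists were chosen with earlier results of these data known. Every gene found is named once by its role. Values by library are given for the 3 genes of each role with the most UMIs, for genes called between genotypes, for the 3 highest and the 3 lowest in free RNA, and for Dhx37. Other genes are given by library where a comparison turned on them.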

Additional observations from a re-analysis of the deposited data

Results flagged for a closer look

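The genotype difference of the early gate was compared with that of the Foxp2/Cntn3 gate by an interaction term in edgeR, with the library as a block, a test chosen after the data were seen. It passed an adjusted p under 0.05 for 11 of 32 genes, where 10.7% of all genes tested were called. The early difference was lower than the Foxp2/Cntn3 difference on the log2 scale for Tmem95 (-1.93), Dcst2 (-1.52), Acrv1 (-1.49), Hyal5 (-1.47), Spam1 (-1.30), Zp3r (-1.26), Dcst1 (-1.26), Spaca6 (-1.13), Spaca7 (-1.10) and Spaca3 (-0.81), and it was higher for Adam2 (1.51). Tmem95 was at 6.74 and 31.2 CPM in the early gate of WT and at 6.43 and 6.46 CPM in that of Dhx37-/-, so its value rests on WT replicate 2, and it did not pass the filter on low counts in the genotype test of the early gate. The round spermatid markers given for the early gate in the report separate the genotypes in the same direction as the first 10 genes, and their part in the test was not tested.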

How the results depend on the processing

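The count of listed genes called between genotypes in the gates was 9 with edgeR and TMM and 7 to 9 with no TMM, no filter on low counts, DESeq2, all barcodes that passed the study's filter, no doublets or the stricter gate, where 0.994% to 1.35% of all tests in the 8 gates were called. The replicate number as a block gave 4 (0.741%). The deviations of same-numbered libraries had correlations of -0.295 to 0.0222. With 2 libraries per genotype the deviations mirror each other, so this cannot show whether same-numbered libraries share more than a number. Crossed pairing, added after the data were seen, gave 14 in the gates, 2 higher and 12 lower (3.3% of all tests), and 2 in free RNA (11.6%). Leaving out 1 library gave 0 to 39 in the gates (0 without Dhx37-/- replicate 2, 6 without Dhx37-/- replicate 1, 33 and 39 without WT replicates 1 and 2, against 0.056%, 0.906%, 9.69% and 12% of all tests), 0 to 2 over all nuclei and 0 to 8 in free RNA. The lone library then left in a genotype is assumed to vary like the others. Step contrasts gave 129 calls, 107 without the library block and 117 to 125 with a library left out. Free RNA against nuclei gave 23 calls, 18 to 23 under the other settings and 21 to 25 with a library left out. Barcodes of ranks 90000 to 180000, with far fewer UMIs each, reversed Cylc1 (-0.20), Adam1a (-0.28), Gopc (-0.61), Dpy19l2 (-0.46) and Zpbp (-0.22). The cause was not tested. The Ung gate of WT replicate 1 limits depth most. For the second list the 5 genotype calls became 2 with the block, 10 with crossed pairing and 0 to 61 with a library left out (43 and 61 without WT replicates 1 and 2), beside the same shares of all tests.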
